A study of Mus musculus with 12 samples.

Results

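The comparison described here is that of Sox9 conditional knockout (cKO) with wild-type (WT) retinal pigment epithelium (RPE) in C57BL/6J mice at postnatal day 5 (P5). Poly(A) RNA of RPE was sequenced in 3 libraries titled as kd, whose genotype label is Sox9.cKO, and in 3 WT libraries. All mice carry the same strain label and no treatment is given. The sources used here do not give the Cre driver, the deleted exons or the way RPE was separated from neighbouring tissue. Another 6 libraries, 3 of each genotype from E15.5 embryos, enter only where they are named. Of the 13942 genes in the deposited table, 12816 lay above the floor value of 50 in at least 3 of the 6 P5 libraries and form the set examined. Among them, 11527 were above the floor in all 6. The labels do not say that the replicates of a group came from separate animals, so p-values measure only the spread between these samples, which may be technical. The sequencing depth is unknown.

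The RPE is the pigmented epithelium behind the photoreceptors. It regenerates the visual chromophore in the visual cycle, moves ions, water and metabolites between the retina and the choroid, and engulfs shed photoreceptor membrane. SOX9 is a transcription factor of the SOX family, known in cartilage, in Müller glia and in the RPE, where it is described as acting with factors such as OTX2 on visual cycle genes. The early postnatal days are a time at which visual cycle genes are being switched on in the RPE and photoreceptors are maturing beside it.

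Sox9 itself (ENSMUSG00000000567, chromosome 11, 112782224 to 112787760, GRCm38) was not lower in the libraries labelled cKO. Its normalised counts were 964, 1500 and 1111 in WT libraries 1, 2 and 3, and 2136, 2384 and 2928 in those labelled cKO. Every cKO-labelled library was above every WT library, and the geometric means differed 2.10-fold. The log2 fold change was 1.07 ± 0.17 (standard error, SE) in a limma fit to all 12 libraries (adjusted p = 0.0306) and 1.07 ± 0.22 in a limma fit to the 6 P5 libraries alone (adjusted p = 0.848). At E15.5 the genotypes overlapped, with 932 to 1156 in WT and 990 to 1034 in cKO-labelled libraries. A count over the whole gene does not show whether a remaining transcript lacks deleted exons. Since the targeted transcript goes against the label, the libraries are called cKO-labelled throughout, and every direction below rests on that label.

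The P5 libraries differed in how much RNA of neighbouring tissues they held, and these differences crossed the genotypes. The mean log2 value of 27 photoreceptor markers was 7.21, 8.34 and 11.03 in WT 1, 2 and 3 and 7.24, 10.31 and 9.39 in cKO-labelled 1, 2 and 3. WT 1 and cKO-labelled 1 were thus lowest and WT 3 highest. Inner retinal neuron markers had the same order within each genotype (7.13, 7.72 and 9.49 against 7.01, 9.07 and 8.42). Lens markers averaged 7.36, 8.65 and 6.03 in WT and 8.91, 8.31 and 9.21 in cKO-labelled libraries, and only WT 2 reached into the cKO-labelled range. Skeletal muscle markers averaged 10.34, 8.80 and 8.01 against 10.46, 10.37 and 9.13, with WT 1 inside the cKO-labelled range. Pigment genes, which mark the RPE and melanocytes, averaged 10.81, 10.58 and 9.39 against 10.32, 9.88 and 10.31, lowest in WT 3. Rpe65, a defining gene of the RPE, was at the floor in all 3 cKO-labelled libraries. In such bulk samples, fewer cells of a type and less RNA per cell cannot be told apart.

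**Figure D1:**
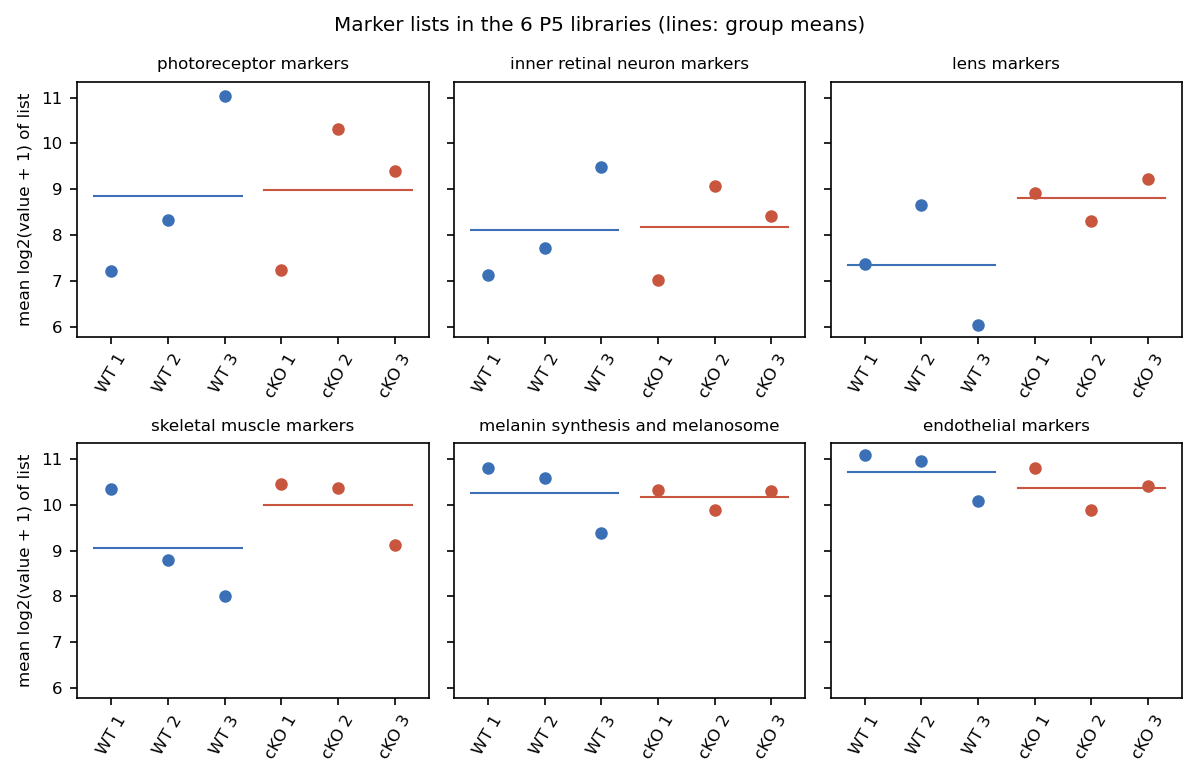
Mean log2(value + 1) of 6 marker lists (vertical axis) in each of the 6 P5 libraries (horizontal axis), 1 point per library, blue for WT and red for cKO-labelled, with a line at each group mean. Photoreceptor means run from 7.21 to 11.03 within WT alone, and the 3 cKO-labelled lens means lie between 8.31 and 9.21 while those of WT lie between 6.03 and 8.65.

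On the log2 scale the replicate SD had a median of 0.327 in WT and 0.242 in cKO-labelled libraries at P5, against 0.103 and 0.113 at E15.5. Across genes, the most alike P5 libraries were WT 1 and cKO-labelled 1 (Pearson r = 0.983), and the least alike were WT 3 and cKO-labelled 1 (r = 0.815). Genes are not independent replicates in such a correlation.

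Few genes separated the genotypes by test. In the 6 P5 libraries alone, limma called 1 of 12816 genes, or 0.0078%, at an adjusted p under 0.05, and 341 had an unadjusted p under 0.05. That gene was Rgr, lower in cKO-labelled libraries, and none (0%) was called higher. With a term for the photoreceptor mean in the same fit, 8 genes were called (0.0624% of those tested), 6 higher and 2 lower. Over all 12 libraries 33 genes were called (0.257%), 27 higher (0.211%) and 6 lower (0.0468%). The 12-library fit takes part of its spread from E15.5, where 31 of these 33 genes varied less, as did 91.5% of all 12816 genes. Of the 33, 8 lay at the floor in every E15.5 library. The p-values of this fit are too small for genes that varied less at E15.5. Its count was 75 without WT 3, 116 without cKO-labelled 1, 13 without cKO-labelled 2 and 10 without cKO-labelled 3. Below, rose and fell are used for the 8 genes called in the 6 P5 libraries with the photoreceptor term, of which only Rgr was called without it. The other 25 are given as called over the 12 libraries. Where no setting is named, called refers to the 12-library fit and the P5 fits with and without the photoreceptor term.

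A count that uses no model of the spread gave more genes. In 467 genes (3.64%) all 3 cKO-labelled libraries were above all 3 WT libraries, and in 369 (2.88%) all 3 were below, together 836 (6.52%). For most the gap was narrow: the nearest libraries of the genotypes were at least 2-fold apart in 14 genes that were higher (0.109%) and 2 that were lower (0.0156%). For any single gene, the exact permutation test of 3 libraries against 3, two-sided, cannot give a p below 0.1, and each gene without overlap has that value. All 33 genes called over the 12 libraries were without overlap, and 15 of them had a gap of at least 2-fold. Of the 33, 4 lay at the floor in every WT library and 2 in every cKO-labelled library. Such a gene passes the filter only when all 3 libraries of the other genotype exceed the floor. Its lack of overlap is thus fixed by the filter, and the group at the floor shows no spread.

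**Figure D2:**
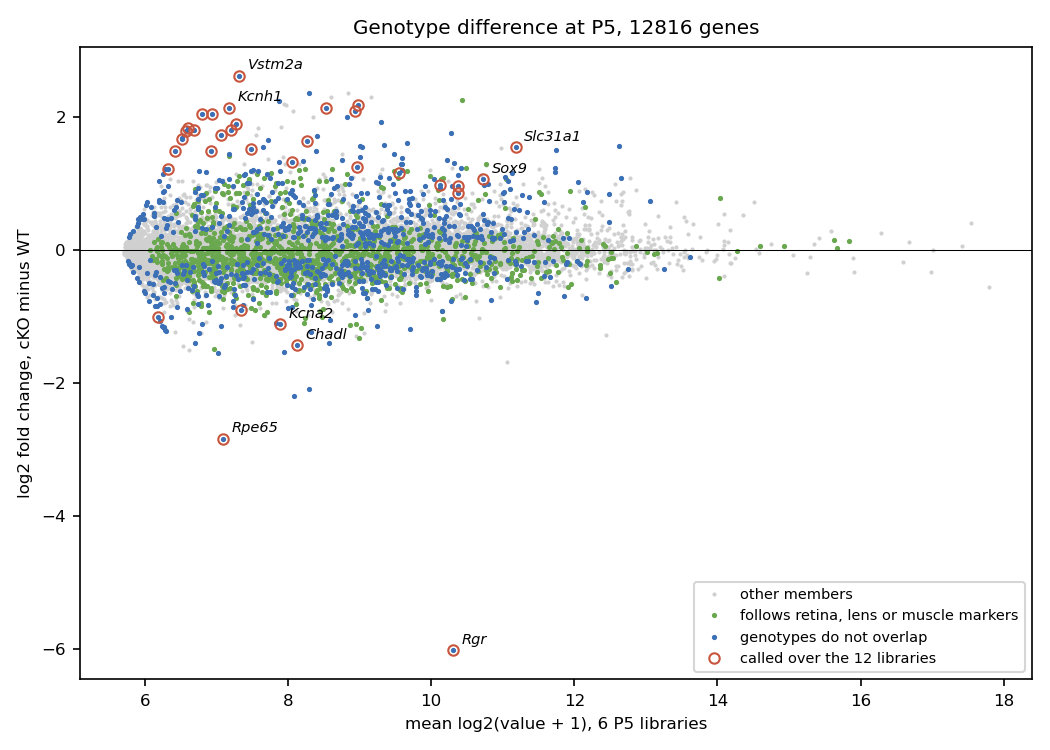
Log2 fold change, cKO-labelled minus WT (vertical axis), against the mean log2(value + 1) of the 6 P5 libraries (horizontal axis) for 12816 genes. Blue points are the 836 genes whose genotypes do not overlap, green points the 1264 genes that follow retina, lens or muscle markers, and red rings the 33 genes called over the 12 libraries. Rgr at -6.02 and Rpe65 at -2.84 stand below all other rings.

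The visual cycle held the 2 genes that fell. RGR is a non-visual opsin of RPE and Müller glia that converts all-trans-retinal under light, RPE65 is the isomerohydrolase that makes 11-cis-retinol, and RLBP1 (CRALBP) carries 11-cis-retinoids in both cell types. The RefSeq promoter windows (GRCm38.p6, from 250 bases before to 50 bases after the start site, 5′ to 3′ on the gene's strand) of these genes and of Kcnh1, a channel gene that rose, are printed to show the letters around their start sites. Capitals mark matches to the SOX words ACAAT and ACAAAG or the OTX word TAATCC, searched on both strands.
Rgr, chr14:37048965-37049264, minus strand: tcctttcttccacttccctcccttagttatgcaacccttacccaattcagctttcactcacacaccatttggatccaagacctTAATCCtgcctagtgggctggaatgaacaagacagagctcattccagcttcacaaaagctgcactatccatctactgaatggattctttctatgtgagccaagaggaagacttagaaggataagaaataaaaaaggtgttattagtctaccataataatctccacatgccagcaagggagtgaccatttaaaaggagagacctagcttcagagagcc
Rpe65, chr3:159598931-159599230, plus strand: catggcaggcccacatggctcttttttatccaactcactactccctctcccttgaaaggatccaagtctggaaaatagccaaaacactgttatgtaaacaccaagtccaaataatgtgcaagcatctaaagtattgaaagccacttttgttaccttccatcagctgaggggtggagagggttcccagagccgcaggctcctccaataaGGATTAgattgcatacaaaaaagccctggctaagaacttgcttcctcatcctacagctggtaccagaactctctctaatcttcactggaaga
Rlbp1, chr7:79386978-79387277, minus strand: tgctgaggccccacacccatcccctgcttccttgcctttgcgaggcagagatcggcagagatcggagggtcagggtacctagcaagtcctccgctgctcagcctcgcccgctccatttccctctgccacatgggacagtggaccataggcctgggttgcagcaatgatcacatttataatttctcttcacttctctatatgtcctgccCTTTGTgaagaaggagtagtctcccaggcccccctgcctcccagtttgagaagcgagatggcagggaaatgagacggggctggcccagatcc
Kcnh1, chr1:192190527-192190826, plus strand: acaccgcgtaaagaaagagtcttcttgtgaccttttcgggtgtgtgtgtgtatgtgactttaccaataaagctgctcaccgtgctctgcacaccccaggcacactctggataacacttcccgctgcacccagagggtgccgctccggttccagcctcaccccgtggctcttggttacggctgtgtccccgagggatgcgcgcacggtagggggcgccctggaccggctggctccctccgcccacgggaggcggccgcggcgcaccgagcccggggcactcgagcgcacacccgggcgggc

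The windows of Rgr and Rpe65 each held 1 OTX word, starting 167 and 42 bases before the RefSeq start site, and no SOX word. For Rgr that start site lies 50 bases before the gene start given by GENCODE, so its window ends where the GENCODE gene begins. The Rlbp1 window held 1 SOX word (as CTTTGT) 42 bases before the RefSeq start, and the Kcnh1 window held none of the 3 words. Among 32851 windows of this length, 31% held ACAAT, 18.7% held ACAAAG and 7.06% held TAATCC. Windows were found for 17 of the 27 genes called higher over the 12 libraries, of which 5 had a SOX word in any of their windows, and for 4 of the 6 called lower, of which 1 did. Among 27025 genes with a window the share was 46.7%. A match is a description of letters and not of binding.

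Rgr (ENSMUSG00000021804, chromosome 14, 37034909 to 37048964) had normalised counts of 10706, 14597 and 6784 in WT and 93.2, 199 and 204 in cKO-labelled libraries. The lowest WT library was 33.2-fold above the highest cKO-labelled library. Rgr fell 65.5-fold in geometric mean, a log2 fold change of -6.02 ± 0.40 (SE) in the 6 P5 libraries alone (adjusted p = 0.0328 by limma). Leaving out 1 of these 6 libraries in turn gave adjusted p-values of 0.0299 to 0.328 and log2 fold changes of -6.32 to -5.66, and the call held only without WT 3. Over the 12 libraries the adjusted p was 1.47e-05, and 24 of 25 other settings of the analysis called it.

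Rpe65 (ENSMUSG00000028174, chromosome 3, 159599175 to 159625321) had 564, 479 and 178 in WT and lay at the floor of 50 in all 3 cKO-labelled libraries. WT 3, the library with the most photoreceptor signal, was its lowest WT value. Its geometric mean was at least 7.27-fold lower. With the photoreceptor term in the P5 fit Rpe65 fell, with a log2 fold change of -2.80 ± 0.29 (SE; adjusted p = 0.0476 by limma). Without that term the adjusted p in the P5 libraries was 0.600, and over the 12 libraries it was 0.00628.

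Rlbp1 was lower in every cKO-labelled library, with 6315, 6337 and 5142 in WT and 2883, 3451 and 4664 in cKO-labelled ones, and was not called in either fit (log2 fold change -0.72, limma adjusted p = 0.319 over the 12 libraries). These were the only members of the 15-gene visual cycle list without overlap. Lrat, which makes retinyl esters, had 532, 435 and 101 against 94.2, 225 and 328, and Rdh5, the 11-cis-retinol dehydrogenase, had 4808, 7619 and 2796 against 2418, 4853 and 5899. In both, the genotypes overlapped widely. Rrh, the opsin peropsin of the RPE, was at 1133, 1519 and 682 against 697, 1027 and 1285. The list's median log2 fold change was -0.19, against -0.02 over all 12816 genes. It was -0.43 without WT 3 and -0.75 with a lens term over the 12 libraries. Since Rgr and Rlbp1 are also expressed in Müller glia, the 14 glia markers bear on them: their mean log2 value was 10.07, 10.92 and 10.45 in WT and 10.01, 10.11 and 10.37 in cKO-labelled libraries, and the part of glia in the result was not tested.

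**Figure D3:**
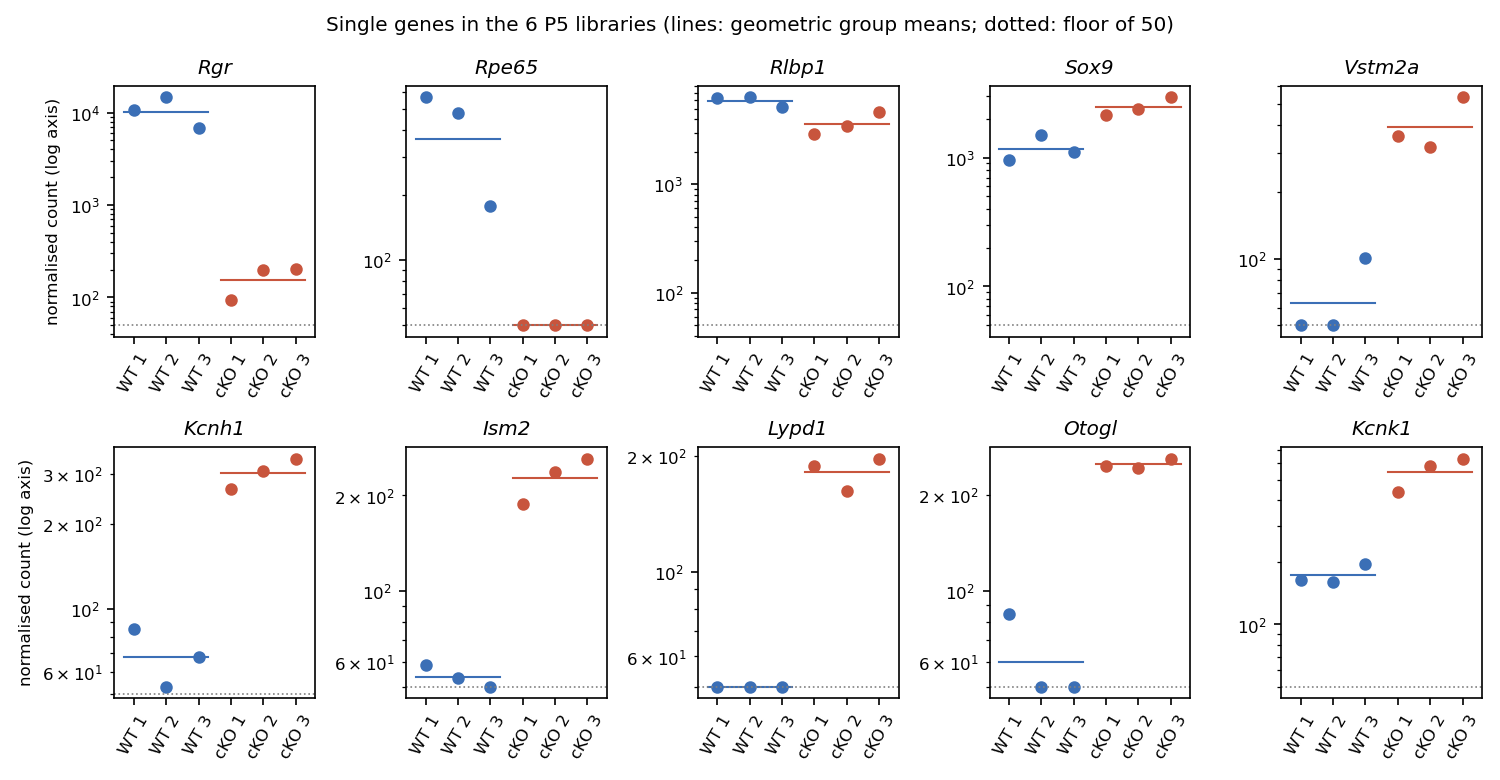
Normalised counts (vertical log axis) of 10 genes in the 6 P5 libraries (horizontal axis), blue for WT and red for cKO-labelled, with lines at the geometric group means and a dotted line at the floor of 50. In each panel the genotypes do not overlap. Rpe65 is at 50 in all 3 cKO-labelled libraries and Lypd1 in all 3 WT libraries, so in both genes the filter fixes the lack of overlap.

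The 6 genes that rose encode channels, secreted or membrane-anchored proteins. Kcnh1 (ENSMUSG00000058248, chromosome 1, 192190774 to 192510159), a voltage-gated potassium channel of the ether-a-go-go family, was at 85.4, 53.2 and 67.8 in WT and 265, 308 and 339 in cKO-labelled libraries. Kcnk1 (ENSMUSG00000033998, chromosome 8, 125995170 to 126030685), a background potassium channel (TWIK-1), was at 164, 161 and 197 against 438, 586 and 631. The nearest libraries of the genotypes were 3.08-fold apart for Kcnh1 and 2.22-fold apart for Kcnk1, whose WT values lay between 161 and 197.

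Vstm2a, which encodes a secreted immunoglobulin-domain protein, had the largest rise. It was at the floor in WT 1 and 2 and at 100 in WT 3, and at 357, 321 and 535 in cKO-labelled libraries, at least 6.25-fold higher. Ism2, an isthmin family secreted protein, was at 58.4, 53.2 and 50 in WT and 188, 237 and 261 in cKO-labelled libraries. Lypd1, a GPI-anchored modulator of nicotinic acetylcholine receptors, did not exceed the floor in any WT library and was at 188, 162 and 197 in cKO-labelled ones, at least 3.64-fold higher. Otogl, an otogelin-like glycoprotein known from the inner ear, was at 84.6, 50 and 50 against 246, 242 and 259. For these 4 genes WT was at or near the floor, so the fold is a lower bound.

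With the photoreceptor term in the P5 fit, limma gave adjusted p-values of 0.0443 for Kcnk1, Lypd1 and Ism2 and of 0.0476 for Kcnh1, Vstm2a and Otogl. Without the term they were 0.189 to 0.343, and with a lens term in its place none of the 6 was called. Log2 fold changes were 1.65 ± 0.21 (SE) for Kcnk1, 1.84 ± 0.19 for Lypd1, 2.05 ± 0.21 for Ism2, 2.04 ± 0.26 for Otogl, 2.15 ± 0.24 for Kcnh1 and 2.62 ± 0.36 for Vstm2a in the P5 libraries alone.

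The other genes called higher over the 12 libraries included signalling proteins usually described in neurons. Chrm1, the M1 muscarinic acetylcholine receptor, was at 274, 208 and 93.8 in WT and 645, 739 and 966 in cKO-labelled libraries. Nap1l5, an imprinted nucleosome assembly protein gene, was at 189, 273 and 251 against 596, 1603 and 1288. Necab2, a neuronal calcium-binding protein, was at 159, 412 and 201 against 706, 1142 and 1287. In all 3 genes the lowest cKO-labelled library was cKO-labelled 1, which also had the least photoreceptor signal of its group.

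Kcnip4, a subunit of A-type potassium channels, was at 50, 109 and 90.4 against 194, 342 and 391. Nos1, the neuronal nitric oxide synthase, was at 110, 67.4 and 50 against 216, 259 and 252. Stxbp5l (tomosyn-2), which restrains vesicle release, lay at the floor in WT and at 136, 144 and 148 in cKO-labelled libraries. Its 3 cKO-labelled values lay close together, at least 2.68-fold above WT.

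Rspo4, an R-spondin that enhances Wnt signalling, and Slc13a5, the plasma-membrane citrate transporter, likewise did not exceed the floor in any WT library. In cKO-labelled libraries Rspo4 was at 120, 200 and 227 and Slc13a5 at 104, 188 and 217. Fcor, a corepressor of FOXO1, was at 85.6, 108 and 50.1 against 204, 341 and 297, and Aard at 59.4, 53.4 and 50 against 114, 216 and 286. These 10 genes, from Chrm1 to Aard, had limma adjusted p-values of 0.000626 to 0.0389 over the 12 libraries and of 0.291 to 0.848 in the P5 libraries alone.

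The remaining 10 genes called higher lay outside the rule for named genes and are named after their values were seen. Slc31a1, the copper importer CTR1, was at 1479, 1575 and 1070 in WT and 3290, 3832 and 4960 in cKO-labelled libraries, with a gap of 2.09-fold between the nearest. Scnn1a, the alpha subunit of the epithelial sodium channel, was at 110, 134 and 78.1 against 270, 276 and 372. The others were Flrt1, Rai2, Gria3, Aifm3, Ahcyl2, Tenm4, Rtn4rl1 and Cacna1g, and the log2 fold changes of the 10 ran from 0.86 to 1.55. Of the 27 genes called higher, 23 had their lowest cKO-labelled value in library 1, as did 40.9% of all 12816 genes and 63.0% of the 467 genes higher without overlap.

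The 4 other genes called lower over the 12 libraries were Chadl, Kcna2, Lgi4 and Mmp17. Chadl, a collagen-binding leucine-rich repeat protein of cartilage, was at 562, 566 and 301 in WT and 161, 181 and 167 in cKO-labelled libraries. Kcna2, a Shaker-type potassium channel of axons, was at 368, 327 and 351 against 142, 211 and 138. Lgi4, a Schwann cell protein needed for myelination, was at 81.2, 103 and 126 against the floor in all 3, and Mmp17, a membrane-anchored metalloproteinase, at 246, 200 and 222 against 127, 113 and 114. Their nearest libraries were 1.55-fold to 1.66-fold apart. Limma adjusted p-values were 0.0304 to 0.0477 over the 12 libraries and 0.848 or more in the P5 libraries alone.

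Because several of these genes encode potassium channel subunits, all 45 genes with the symbol prefix Kcn were listed, a family chosen after values were seen. Over the 12 libraries 3 were called higher and 1 lower (0.211% and 0.0468% among all genes). Without overlap 6 were higher and 3 lower (3.64% and 2.88% among all genes), and the family's median log2 fold change was -0.02, that of all genes. The range was -1.20 for Kcnq3 to 2.15 for Kcnh1. Kcnj11, a subunit of ATP-sensitive potassium channels, was at 112, 50 and 62.6 in WT and 173, 161 and 153 in cKO-labelled libraries. Kcnj13, the Kir7.1 channel of the apical RPE membrane, was at 560, 456 and 146 against 215, 186 and 230 and overlapped.

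Some genes had a wide gap but were called neither in the 12-library fit nor in the P5 fits. Folr1, the folate receptor alpha, which the RPE uses for folate uptake, was at 219, 235 and 50 in WT and 653, 792 and 684 in cKO-labelled libraries, a gap of 2.77-fold (limma adjusted p = 0.0976 over the 12 libraries). That p was 0.0027 without WT 3, 0.0129 after centring on the pigment genes and 0.251 with group weights. Serpina3n, an acute-phase serine protease inhibitor, was at 414, 1787 and 370 against 216, 102 and 158. Grik1, a kainate receptor subunit, was at 436, 415 and 403 against 75.4, 224 and 174. In Grik1 the WT libraries lay between 403 and 436, while the cKO-labelled libraries had the order of their photoreceptor means.

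Dusp4, a MAP kinase phosphatase, was at 732, 378 and 420 against 215, 201 and 206, and Faah, which degrades anandamide, at 87.1, 126 and 135 against 50, 50 and 51.3. S100b, a calcium-binding protein of glia, was at 916, 2323 and 932 against 561, 547 and 539. Of these 6, only Folr1 had a gap of at least 2-fold; those of Serpina3n, Grik1, Dusp4, Faah and S100b were 1.63-fold to 1.80-fold.

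Among the gene lists that describe the RPE, pigment genes did not separate the genotypes. None of 18 melanin and melanosome genes was called in any of the fits named above or was without overlap, and their median log2 fold change was -0.14, or -0.36 without WT 3 and -0.76 with a lens term. Tyr, the tyrosinase, was at 6997, 8052 and 2338 in WT and 7368, 7142 and 10247 in cKO-labelled libraries. Gpr143, Rab38 and Slc45a2 were lower on average in cKO-labelled libraries, with log2 fold changes of -0.63, -0.51 and -0.28, and overlapped as well. Of 12 RPE transcription factors only Sox9 was without overlap. Otx2 was at 4123, 7032 and 13598 against 3829, 11579 and 9981 and followed the photoreceptor order. Mitf was at 1412, 1521 and 423 against 1145, 1238 and 1343, lowest in WT 3.

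Of 28 RPE transport, phagocytosis and polarity genes, none was called in the 12-library fit or the P5 fits. Without overlap 3 were higher and 1 lower (3.64% and 2.88% among all genes), and the median log2 fold change was 0.33. Slc9a3r1, the scaffold EBP50 of the apical membrane, was at 841, 978 and 367 in WT and 1485, 2740 and 2949 in cKO-labelled libraries. Atp1b1, the beta subunit of the sodium pump, was at 2630, 2824 and 1548 against 3819, 4744 and 7324. Slc6a20a, an imino acid transporter, was lower at 645, 1001 and 305 against 58.8, 139 and 242. Limma adjusted p-values over the 12 libraries were 0.0962, 0.252 and 0.163 for these 3. The third gene that was higher without overlap was Gas6, a ligand of the phagocytic receptor MERTK, at 2576, 2606 and 1205 against 3504, 3203 and 3781. Without WT 3 the list's median was 0.06, and with a lens term over the 12 libraries it was -0.27.

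Of 14 genes tied to SOX9 in cartilage, 1 (Chadl) was called lower over the 12 libraries, where 0.0468% of all genes were. Without overlap 4 were lower and none higher, against 2.88% and 3.64% of all genes. The median log2 fold change was -0.35, and it was -0.63 without WT 3 and -0.76 with a lens term over the 12 libraries. Col9a1 and Col9a2, chains of type IX collagen, were at 371, 1039 and 609 against 147, 242 and 351, and at 649, 1030 and 476 against 429, 257 and 383. Sox5, a SOX factor that acts with SOX9 in chondrocytes, was at 227, 206 and 227 in WT and 120, 125 and 126 in cKO-labelled libraries. Its values within each genotype lay close together, with a gap of 1.63-fold (limma adjusted p = 0.189 over the 12 libraries). Col2a1, the chain of type II collagen, overlapped at 1569, 1523 and 3585 against 1645, 1907 and 1413. Of 12 other SOX family genes, 2 were lower without overlap, Sox5 and Sox11, where 2.88% of all genes were.

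Signalling lists gave no call in the 12-library fit or the P5 fits. Other settings called single members, such as Sfrp5 without WT 3 (limma adjusted p = 0.0027). Of 24 TGF-beta and BMP genes, 3 were higher and none lower without overlap, against 3.64% and 2.88% of all genes. They were Bmp6 at 1255, 1023 and 408 against 1977, 1533 and 2647, the inhibitory SMAD gene Smad7, and the BMP antagonist gene Chrd. Id1 and Id3, targets of BMP signalling, were at 2044, 2466 and 1347 against 2205, 6247 and 6315, and at 4324, 5899 and 3103 against 5650, 9652 and 11579, and overlapped. Of 21 Wnt genes, 1 was higher and 2 lower without overlap, against 3.64% and 2.88% of all genes. The higher one was Sfrp1, a secreted Wnt antagonist, at 5848, 6114 and 2164 against 6520, 7779 and 8964, with a gap of only 1.07-fold. The Wnt list's median log2 fold change was -0.17, against -0.02 over all genes.

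Of 19 angiogenic and angiostatic factors, none was called or without overlap. Vegfa, the growth factor the RPE supplies to the choroid, was at 3718, 5359 and 3311 against 2773, 4511 and 4535. Among 19 factors, 8 ran against the photoreceptor order with a range of at least 2-fold in each genotype. The angiostatic protease gene Adamts1 was among them, at 960, 543 and 405 in WT and 703, 203 and 406 in cKO-labelled libraries.

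No cell state list had a called member in the 12-library fit or the P5 fits. Cholesterol synthesis had a median log2 fold change of -0.16 over 21 genes. Of these, Idi1 and Cyp51 were lower without overlap, where 2.88% of all genes were. With a photoreceptor term over the 12 libraries their limma adjusted p-values were 0.0278 and 0.0438. Median log2 fold changes were 0.05 for 32 cell cycle genes, 0.12 for 28 oxidative phosphorylation genes and 0.07 for 23 lysosome genes. Without WT 3 the medians were -0.33 for cholesterol synthesis, -0.13 for the cell cycle, 0.10 for oxidative phosphorylation and 0.03 for lysosome genes. Cdk1, the mitotic kinase, and Tfeb, a regulator of lysosomal genes, were the single members higher without overlap in the cell cycle and lysosome lists.

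**Figure D4:**
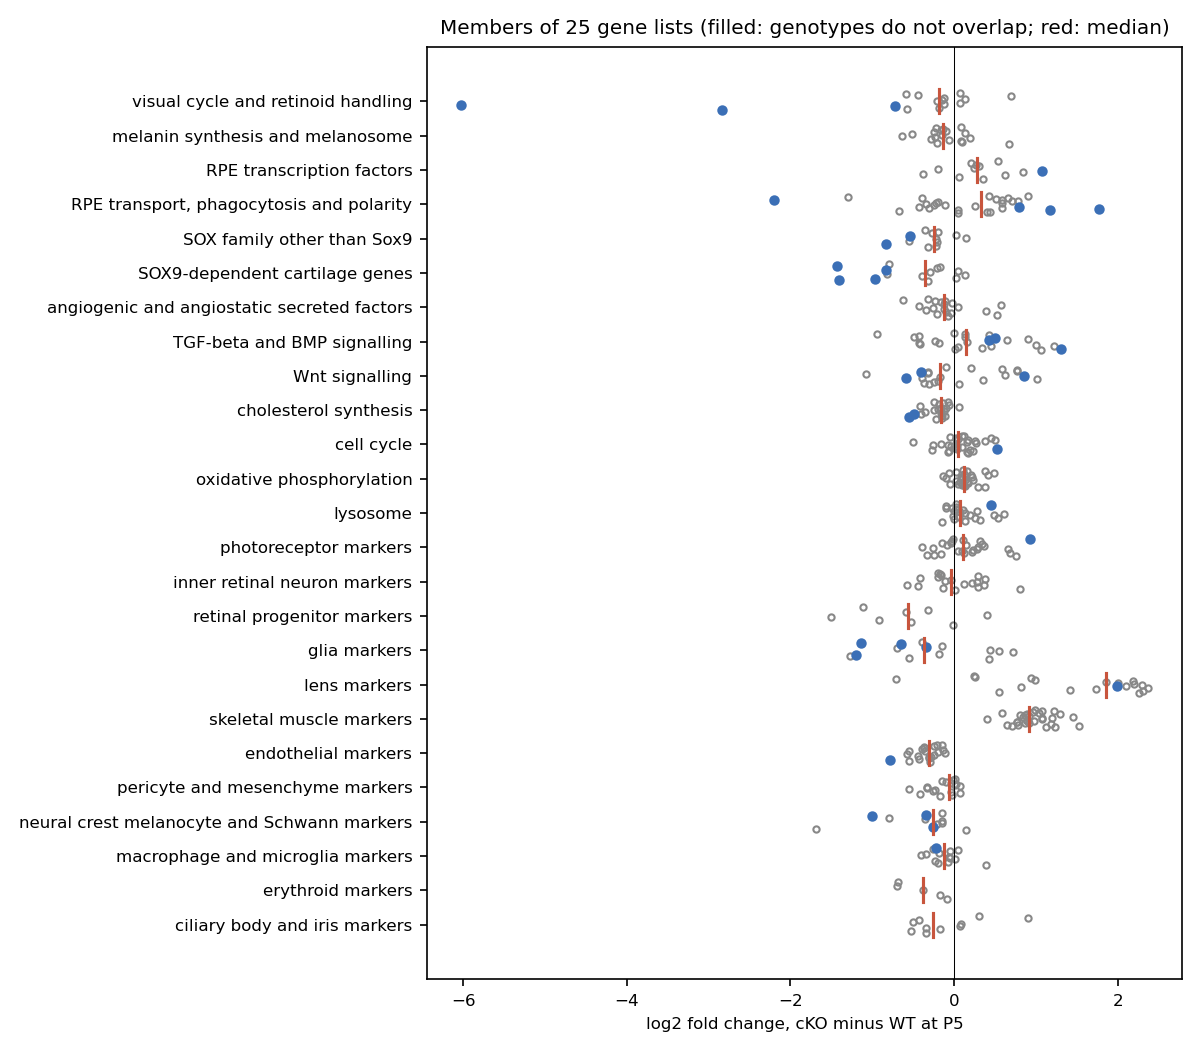
Log2 fold change, cKO-labelled minus WT at P5 (horizontal axis), of the members of 25 gene lists (vertical axis), 1 point per gene, filled where the genotypes do not overlap, with a red bar at each list's median. The lens and skeletal muscle medians, 1.86 and 0.92, lie farthest to the right, with 1 filled point between them (Crybb3), and the visual cycle row holds Rgr and Rpe65 at the far left.

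Carry-over was followed gene by gene. A gene was said to follow a signal where its order of the 3 libraries within WT and within cKO-labelled libraries was that of the marker mean, or the reverse of it in both, with a range of at least 2-fold in each genotype. Order within a genotype does not depend on the difference between genotypes. The photoreceptor order was followed by 553 genes outside that list (4.31%) and reversed by 529 (4.13%). The muscle order was followed by 115 and reversed by 16, and the lens order was followed by 9 and reversed by 1. Counted with the marker lists themselves, 1264 genes (9.86%) followed or reversed at least 1 signal. Of the 836 genes without overlap, 1 did so, and of the 33 genes called over the 12 libraries none did. The range asked for in each genotype limits these 2 counts. A 2-fold range within both genotypes was held by 9 of the 836 and 2 of the 33, against 1609 of all 12816 genes. A smaller share of a neighbouring tissue's RNA would go unseen. For lens, the marker mean itself ran only from 8.31 to 9.21 in cKO-labelled libraries, less than 2-fold. The rule passed only 2 of the 19 lens markers, and lens signal that differs between the genotypes does not enter it. Lens carry-over in these genes was thus not tested by the count.

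Followers of the retinal signal included genes that spanned 42.7-fold to 50.8-fold over the 6 libraries. Tubb3, a neuronal tubulin, ran from 91.5 through 406 to 3007 in WT 1, 2 and 3 and was at 59.2, 1114 and 689 in cKO-labelled libraries. Neurod4, a proneural factor, was at 124, 572 and 5446 against 131, 733 and 395, and the host transcript Mir124-2hg at 50, 303 and 2137 against 50, 959 and 464. Of the 27 photoreceptor markers, 21 shared the order of their own mean with a range of at least 2-fold in each genotype. Rcvrn, the calcium sensor recoverin, was at 50, 75.0 and 704 against 50, 698 and 315. Among photoreceptor markers Abca4 alone was without overlap, at 1585, 1938 and 1327 against 2149, 3526 and 3670.

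The lens signal had few followers outside the lens list. Only 2 of its 19 members shared the full order of the mean with a range of at least 2-fold in each genotype. Cryba1 had that order and was not counted, as its cKO-labelled range was under 2-fold. Cryaa, an alpha-crystallin, was at 1020, 2293 and 107 in WT and 3311, 2017 and 4118 in cKO-labelled libraries. Crybb1 was at 220, 716 and 50 in WT and 1332, 685 and 1208.5 in cKO-labelled libraries, and Crygb at 184.5, 570 and 50 against 1242, 502 and 1024. In both genes WT 2 lay above cKO-labelled 2, so the genotypes overlapped. The list's median log2 fold change was 1.86, with 1 of 19 genes, Crybb3, higher without overlap and none called. The median was 1.08 without WT 3 and 0.01 with a lens term over the 12 libraries. That term is the mean of these same markers, so the value of 0.01 is near 0 by construction. Dsp, the desmosomal protein desmoplakin, was at 324, 392 and 71.3 against 61.1, 50 and 131, and Nkx6-1, a homeobox gene, at 81.0, 326 and 76.0 against 102, 50 and 182. Gsto1 and Mal had the same order.

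Skeletal muscle genes were higher in cKO-labelled libraries on average and overlapped in all cases. Of 31 members, 18 shared the order of their own mean with a range of at least 2-fold in each genotype. None was without overlap, and the median log2 fold change was 0.92, or 0.47 without WT 3. Atp2a1, the calcium pump of fast fibres, was at 3268, 816 and 517 in WT and 4082, 3314 and 1520 in cKO-labelled libraries. Outside the list, Synpo2l, a sarcomere-associated protein, was at 897, 181 and 85.0 against 1035, 408 and 290, and Mylk4, a myosin light chain kinase, at 510, 118 and 50 against 586, 385 and 150. Tpsb2, a mast cell tryptase, had the same order, and Nlgn1, a synaptic adhesion protein, had the reverse.

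**Figure D5:**
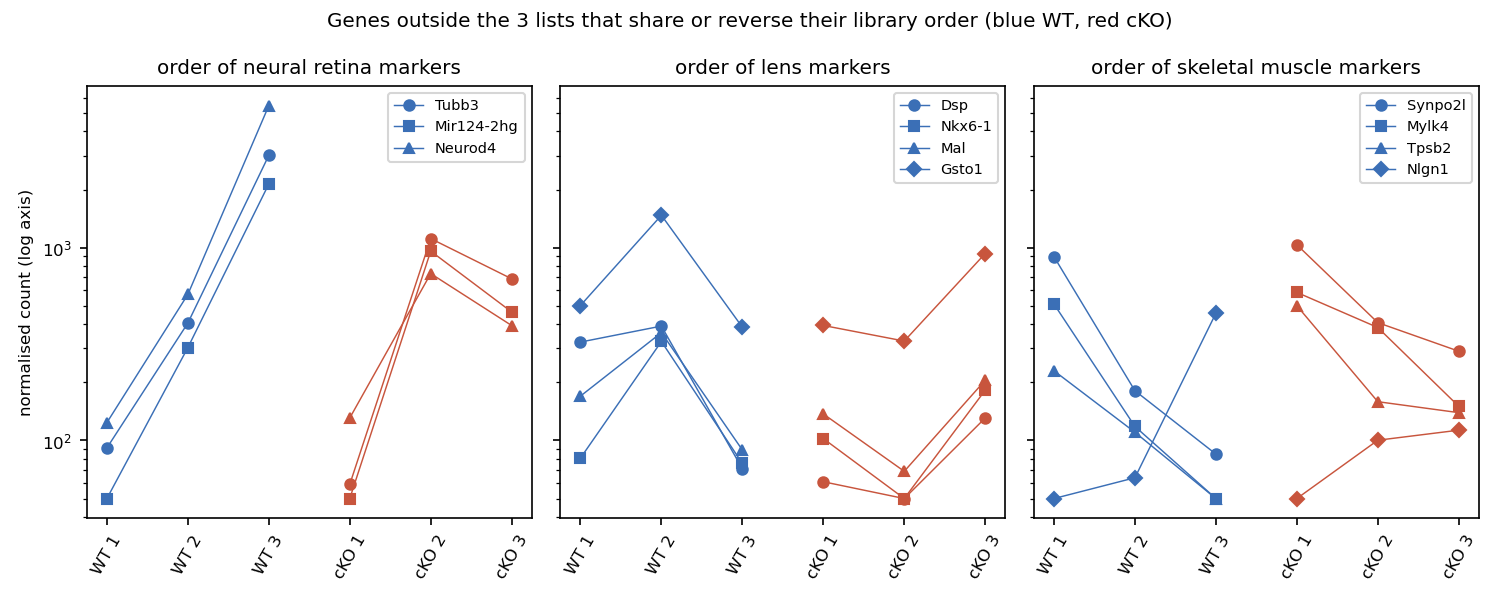
Normalised counts (vertical log axis) in the 6 P5 libraries (horizontal axis) of 3 or 4 genes each that follow or reverse the library order of photoreceptor, lens and skeletal muscle markers, blue for WT and red for cKO-labelled. Tubb3 runs from 91.5 to 3007 within WT, and Nlgn1 in the right panel runs opposite to the other 3 genes.

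Of 14 glia markers, 4 were lower without overlap (S100b, Kcnj10, Cnp and Mbp) and none higher, against 2.88% and 3.64% of all genes, with a median log2 fold change of -0.37. Kcnj10, the glial Kir4.1 channel, was at 69.8, 139 and 141 in WT, with every cKO-labelled library at the floor. The filter thus fixed its lack of overlap. Gfap was at 5459, 18743 and 6362 against 3703, 2112 and 5868. Apoe, another of the 14 markers, went the other way and overlapped, at 17979, 23336 and 14336 against 21548, 32145 and 39044. Of 12 melanocyte and Schwann cell markers, 3 were lower without overlap (2.88% among all genes), Lgi4 among them, with a median of -0.26, or -0.48 without WT 3. Sox10, the defining factor of these cells, overlapped at 2670, 2829 and 942 against 1920, 2133 and 2368.

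Of 21 endothelial markers, only Kdr, a receptor for VEGF, was lower without overlap (2.88% among all genes), at 4361, 2966 and 3923 against 2932, 1610 and 2099. The endothelial median was -0.31, or -0.66 without WT 3. Of 18 pericyte and mesenchyme markers and of 19 inner retinal neuron markers none was without overlap. The medians were -0.07 and -0.04, and turned to 0.02 and 0.05 when values were centred on the pigment genes, which moved the median of all genes from -0.02 to 0.07. Without WT 3 they were -0.40 and 0.92, and with a lens term -0.49 and 1.40. Of 14 macrophage and microglia markers 1 was lower without overlap (2.88% among all genes). None of 8 retinal progenitor, 5 erythroid or 10 ciliary body and iris markers was without overlap. The retinal progenitor median of -0.56 turned to 0.25 without WT 3 and to 0.49 with a lens term.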

How the data were processed

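Gene expression was measured by RNA sequencing. The submitters' processing notes name TopHat2 2.0.10, HTSeq and mm10. The sources used here do not give the annotation release, strand setting or depth. The deposited values are a signal: gene counts that the authors quantile-normalised, with a floor of 50, as the name of the table states. All 12 columns held the same sorted values (median 367.4, with 9.87% at the floor). Ranks are thus shared: Col1a1 held the top value in 4 P5 libraries, and Ttr held one lower value in 3. No counting error can be attached.

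Genes above 50 in at least 3 of the 6 P5 libraries were tested as log2(value + 1) with limma 3.58.1 in R 4.3.3: 1 mean per group over all 12 libraries, eBayes with a trend, two-sided, Benjamini-Hochberg over 12816 genes, called at an adjusted p under 0.05. The same test in the 6 P5 libraries alone, without and with the photoreceptor mean as a term, is printed beside it. Moderated degrees of freedom were 10.8 over the 12 libraries and 6.53 in the 6 P5 libraries without that term. A log2 fold change is on the log2(value + 1) scale, and a fold against values at the floor is a lower bound. The scripts were tested on simulated data.

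Named genes were Sox9, up to 15 called rises and 15 called falls with the largest changes, the 10 widest gaps in each direction, up to 4 members per list and 4 followers per signal. The text prints a part of them, and 2 genes that the rule names are not reported here. Other genes printed were chosen after their values were seen. The members, the 25 lists, the rules and the tests were chosen with earlier results of these data known. Positions are from GENCODE M21. Alternatives covered the samples fitted, covariates, weights, filters, pseudocounts, centring and libraries left out.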

Additional observations from a re-analysis of the deposited data

Results flagged for a closer look

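A difference of the genotype effect between the ages was called by the interaction term of limma over the 12 libraries in 8 genes (0.0624% of those tested), and 7 of these were among the genes described. The effect at P5 minus that at E15.5, on the log2 scale, was -6.02 for Rgr, 2.07 for Ism2, 2.04 for Kcnh1, 2.04 for Otogl, 1.74 for Kcnk1, 1.57 for Lypd1 and 1.49 for Stxbp5l, with adjusted p-values of 0.000532 to 0.0261. Rgr, Otogl and Stxbp5l were at the floor in all 6 E15.5 libraries, so no genotype difference could show there. Ism2 did not exceed 51.3 and Kcnh1 did not exceed 62.8 at E15.5, so the floor limits these 2 genes as well. Lypd1 was at 142 to 166 in WT and 160 to 206 in cKO-labelled libraries at E15.5, above its floor value in P5 WT, and Kcnk1 at 214 to 277 and 209 to 230. The remaining gene, Ttr, the carrier of thyroxine and of retinol-binding protein, is outside the rule for named genes. It was at 1602, 1473 and 1454 in WT and 110, 89.1 and 85.3 in cKO-labelled libraries at E15.5, and overlapped at P5. The spread was smaller at E15.5 than at P5, so these p-values carry the limit given for the 12-library fit.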

How the results depend on the processing

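Of the 33 calls over the 12 libraries (27 higher, 6 lower), the fit to the 6 P5 libraries kept 1 (0 and 1), the same with a photoreceptor term 8 (6 and 2) and with a lens term 0. A filter at above 50 in all 6 P5 libraries gave 11 calls (9 and 2), group weights 11 (9 and 2), centring on the pigment genes 5 (3 and 2), a photoreceptor term 205 (125 and 80), a lens term 44 (14 and 30) and library weights, which did not converge and gave cKO-labelled 3 a weight of 0.00118, 59 (27 and 32). Without the pair of highest photoreceptor signal (WT 3 and cKO-labelled 2) 42 were called (18 and 24), and without the pair of lowest (WT 1 and cKO-labelled 1) 90 (74 and 16). These pairs, the lens term in the P5 fit and libraries left out of the P5 fit were alternatives added after seeing the data. Leaving out 1 library gave 10 to 116 calls (8 to 92 higher and 2 to 37 lower), 0 to 2 in the P5 libraries alone, 3 to 23 interaction calls, and 644 to 1510 genes higher and 537 to 1487 lower without overlap. A group of fewer libraries separates more easily by construction.

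With the replicate number as a block 13 genes were called (11 and 2), 12 of them among the 33. Deviations of same-numbered libraries from their group means correlated across genes at r = 0.79, -0.30 and 0.21 for numbers 1, 2 and 3. Of the WT libraries, 2 and 3 correlated best with another number, and so did cKO-labelled 2. Since the correlation for number 2 was below 0, the numbers were not taken to pair the samples. Centring on the pigment genes left 67 genes lower without overlap, and a gap of at least 2-fold left 14 higher and 2 lower. Followers at a range of 1.5-fold, of 4-fold and after centring numbered 967, 217 and 1777 for the retinal order, 1212, 7 and 3 for its reverse, 56, 0 and 5 for lens, 22, 0 and 36 for its reverse, 245, 4 and 24 for muscle, and 51, 0 and 5 for its reverse. The cause of these changes was not tested. No named gene's fold change reversed among the 23 that were called. The unknown depth limits every low value.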
